A study of Mus musculus with 12 samples.

Results

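The proteasome genes described here are the protein-coding genes of the GENCODE M21 mouse annotation whose symbol starts with Psma, Psmb, Psmc, Psmd, Psme, Psmf or Psmg followed by a digit, leaving out the immunoproteasome genes Psmb8, Psmb9 and Psmb10. This gave 47 genes among the 54532 of the count table, and 46 of them passed the low-count filter. The gene that did not pass was Psmb11, the thymus-specific beta subunit, which had 0 to 3 counts in every library. A further 4 symbols of this form belonged to pseudogenes, which held at most 4 counts in a library and were left out. Psmc3ip met the symbol rule but encodes a factor of meiotic recombination. It is counted in every total over the members, but not among the subunits.

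The samples were poly-A RNA of mouse bone marrow HSPCs, the haematopoietic stem and progenitor cells from which the blood lineages arise. The 12 libraries formed 4 groups of 3: aged cells cultured with uridine, aged cells cultured with vehicle, aged cells taken without culture, and young cells taken without culture. Uridine is a pyrimidine nucleoside, and the study set its effect on aged cells against the vehicle. All mice were labelled wild type, but the strain label counts up from C57BL/6 to C57BL/15 over the libraries, so the strain is uncertain. The sources used here do not give the markers of the cell sort, the ages, the culture time or the uridine dose. Library totals were 16785065 to 19025802 counts. Nothing in the labels ties the 3 libraries of a group to separate animals or dishes, and every p-value therefore rests on the spread among libraries, which may be technical.

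The proteasome is the protease that degrades proteins tagged with ubiquitin. Its core particle is a barrel of alpha rings, which gate the entrance, around beta rings, which hold the active sites. The regulatory particle caps the barrel. Its base holds the ATPases that unfold the substrate, and its lid holds the deubiquitinase that removes the ubiquitin chain. Other activators can take the place of this cap, and dedicated chaperones assemble both particles. In blood stem cells, as in other cells, the proteasome sets the lifetime of cell-cycle regulators and transcription factors and clears damaged proteins.

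Levels are given as CPM, the counts scaled to a common library size with TMM factors. All 14 constitutive core subunits and the 17 listed regulatory particle subunits passed the low-count filter. Summed over the 47 genes, the level was 5026 ± 33.5 CPM in uridine cultures, 5626 ± 22.3 CPM in vehicle cultures, 4724 ± 85.8 CPM in uncultured aged cells and 4730 ± 32.7 CPM in uncultured young cells (SD, n = 3 each). The vehicle cultures stood above every other library in this sum, and the libraries of uncultured aged and young cells overlapped. The vehicle cultures had the highest mean of the 4 groups for 35 of the 46 genes tested, a place they held for 29.55% of all genes tested. The uridine cultures had the highest mean for 0 of the 46 and uncultured aged cells for 10, where they did so for 9.85% and 34.98% of all genes. In bulk samples, fewer cells of a type and less RNA per cell cannot be told apart.

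Levels between genes were compared per length, as CPM per kilobase of the reference transcript. In uncultured young cells the most abundant subunit was Psma7, of the alpha ring, at 210.2 CPM per kilobase. The beta subunit Psmb4 followed at 145.0 and Psme1, of the interferon-inducible cap PA28, at 134.6 CPM per kilobase. Among the 31 subunits of the core and regulatory particles, the lowest was the lid subunit Psmd11, at 28.0 CPM per kilobase. The order depends on the length used. Per kilobase of all annotated exons of a gene, a length tried in addition, Psma6 was first at 94.9 CPM per kilobase, before Psmb4 at 87.95 and Psmb5 at 84.15. Psma7 was then at 62.6 and Psme1 at 67.75 CPM per kilobase, and Psmd11, at 12.5, was again the lowest of the 31. The testis-specific alpha subunit Psma8 was at 2.84 to 4.21 CPM over the 12 libraries and was not called in any comparison.

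Promoter windows of 4 members whose transcripts differed between groups are shown, because their motifs are those counted below. Each is RefSeq sequence of GRCm38.p6, 5′ to 3′ on the strand of the gene, from 250 bases before the RefSeq start to 30 after it, with 1 motif match in capitals. For Psme1, Psmd1 and Psme4 the GENCODE gene begins upstream of the RefSeq start, inside or before the window. Psme1 lies at chr14:55578244-55578523 on the plus strand, and the capitals mark the interferon element core (GAAA, any 2 bases, GAAA), read on the minus strand. Psma5 lies at chr3:108256676-108256955 on the plus strand, and the capitals mark TGAGNNNGC, a form of the antioxidant response element core, read on the minus strand. Psmd1 lies at chr1:86064369-86064648 on the plus strand, with TGAGNNNGC in capitals. Psme4 lies at chr11:30771525-30771804 on the plus strand, and the capitals mark TGACNNNGC, the other form of that core, read on the minus strand.
Psme1: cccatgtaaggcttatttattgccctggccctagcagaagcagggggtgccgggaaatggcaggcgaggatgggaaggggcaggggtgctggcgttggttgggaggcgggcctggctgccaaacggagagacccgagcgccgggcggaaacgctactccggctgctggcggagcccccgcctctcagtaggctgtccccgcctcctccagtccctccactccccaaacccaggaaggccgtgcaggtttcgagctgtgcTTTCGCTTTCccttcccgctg
Psma5: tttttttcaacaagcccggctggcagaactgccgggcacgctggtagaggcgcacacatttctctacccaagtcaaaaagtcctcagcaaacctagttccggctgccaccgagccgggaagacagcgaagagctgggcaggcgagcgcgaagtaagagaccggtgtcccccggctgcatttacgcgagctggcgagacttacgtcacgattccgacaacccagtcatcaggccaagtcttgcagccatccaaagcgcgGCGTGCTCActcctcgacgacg
Psmd1: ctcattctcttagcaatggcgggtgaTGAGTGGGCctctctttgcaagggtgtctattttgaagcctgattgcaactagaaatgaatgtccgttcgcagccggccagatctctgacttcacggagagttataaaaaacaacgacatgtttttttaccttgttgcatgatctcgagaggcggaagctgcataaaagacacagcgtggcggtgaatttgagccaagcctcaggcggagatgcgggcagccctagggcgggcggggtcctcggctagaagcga
Psme4: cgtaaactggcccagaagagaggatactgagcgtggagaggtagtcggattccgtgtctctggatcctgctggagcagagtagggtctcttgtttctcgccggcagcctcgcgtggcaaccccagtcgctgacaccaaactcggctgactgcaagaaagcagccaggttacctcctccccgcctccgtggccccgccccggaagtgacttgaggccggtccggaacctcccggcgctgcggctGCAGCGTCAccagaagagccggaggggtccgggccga

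RefSeq gave a promoter window to 39 of the 47 genes, 42 windows of 300 bases in all. The motifs were searched on both strands, and the windows were set beside all 32851 in the table. At least 1 of TGACNNNGC and TGAGNNNGC, the core to which the NRF factors bind, stood in 42.9% of the members' windows and in 27.8% of all windows. The forms differed: TGACNNNGC stood in 14.3% and 12.4% and TGAGNNNGC in 33.3% and 17.6%, and a window can hold both. The GC box GGGCGG stood in 54.8% of the members' windows and in 35.7% of all, CCAAT in 33.3% and 37.4%, CACGTG in 7.14% and 7.15%, and TATAAA in 7.14% and 13.6%. The interferon element core, a motif added after the values of Psme1 were seen, stood in 11.9% of the members' windows, those of Psmb3, Psmd4, Psmd9, Psme1 and Psmg4, and in 3.44% of all windows. The match of Psme1 begins 9 bases after the RefSeq start. Psme2, its partner in PA28, had a window without this motif. All motifs counted are matches of letters in short windows and say nothing on binding.

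The first comparison set uridine cultures against vehicle cultures of aged cells. Most proteasome genes were lower with uridine, by small amounts: 29 of 46 fell, 1 rose and 16 were not called. A call is a Benjamini-Hochberg adjusted p below 0.05 in the quasi-likelihood test of edgeR. Over all 16675 genes tested, 18.1% were called lower, 20.0% higher and 38.1% in either direction. The median log2 fold change of the 46 was -0.16, beside -0.00106 over all genes tested, and 44 of the 46 had a negative sign. Medians over genes of like transcript length are given further below. The 3 uridine libraries lay below all 3 vehicle libraries for 34 members and above them for 1, where 24.8% and 25.2% of all genes did so. No member reached a log2 fold change of 1 in either direction, which 9.88% of all genes did.

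Subunits of both particles fell. All 7 alpha subunits fell (median log2 fold change -0.22), and 6 of 7 beta subunits did (median -0.21). Of the beta subunits Psmb7, which carries the trypsin-like site, was not called (-0.06). Summed over the 14 core subunits, the level was 1698 ± 23.1 CPM in uridine cultures and 1962 ± 23.7 CPM in vehicle cultures. In the regulatory particle 11 of 17 subunits fell (median -0.15), and the summed level was 2378 ± 6.37 CPM in uridine cultures and 2571 ± 8.07 CPM in vehicle cultures. Of its base ATPases 4 of 6 fell, and of its lid subunits 6 of 8. Psmd14, the lid's deubiquitinase, was among them at -0.20. The base scaffolds Psmd1 (-0.04) and Psmd2 (-0.07) and the lid subunit Psmd3 (0.00176) were not called. Psmd2 passed the threshold under 7 of the alternatives tried.

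The largest falls were in PA28, the cap made of Psme1 and Psme2 that interferon induces and that serves the cutting of antigenic peptides. Psme1 (ENSMUSG00000022216, chr14:55578123-55581529) was at 186.6, 182.0 and 188.1 CPM in uridine cultures, against 253.7, 245.8 and 251.2 CPM in vehicle cultures. Psme2 (ENSMUSG00000079197, chr14:55587441-55591113) was at 80.5, 97.7 and 102.0 CPM in uridine cultures, against 127.3, 135.2 and 135.6 CPM in vehicle cultures. All uridine libraries were lower than all vehicle libraries for both genes, and the first uridine library was the lowest for Psme2. The log2 fold changes were -0.43 (SE 0.0353) for Psme1 and -0.51 (SE 0.0596) for Psme2, with edgeR quasi-likelihood adjusted p-values of 1.64e-12 and 9.53e-09 after Benjamini-Hochberg adjustment. Psme1 overlaps exons of Emc9 on the opposite strand, but Emc9 held 923 counts over the 12 libraries beside 41809 for Psme1. Psme2b, a near copy of Psme2, also fell (-0.38). The reads of both copies are uncertain, since either can take those of the other, and exons of 9930111J21Rik1 overlap Psme2b on the same strand. Psme2b was highest in the uridine library where Psme2 was lowest, at 67.4, 49.0 and 43.9 CPM in uridine cultures. Summed over both copies the level was 147.9, 146.6 and 145.9 CPM in uridine cultures, against 203.0, 197.7 and 205.8 CPM in vehicle cultures, and the groups did not overlap.

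Psma5 and Psmb6 came next by p-value. The alpha subunit Psma5 was at 105.3, 100 and 101.0 CPM in uridine cultures, against 122.2, 128.8 and 129.1 CPM in vehicle cultures. Psmb6, which carries the caspase-like site, was at 104.3, 108.2 and 104.9 CPM in uridine cultures, against 127.3, 134.6 and 132.4 CPM in vehicle cultures. For both genes the groups did not overlap. Their log2 fold changes were -0.31 (SE 0.0401) and -0.31 (SE 0.0415), with edgeR quasi-likelihood adjusted p-values of 7.00e-08 and 1.20e-07. Psmb5, the chymotrypsin-like subunit and the target of bortezomib, fell by 0.24 on the log2 scale.

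Psme3 was the single member that rose with uridine. It encodes the nuclear activator PA28 gamma, which works without ubiquitin. It was at 210.5, 216.6 and 213.9 CPM in uridine cultures, against 195.5, 198.6 and 194.8 CPM in vehicle cultures. The groups did not overlap, and the log2 fold change was 0.12 (SE 0.0318, edgeR quasi-likelihood adjusted p = 0.00226). The other nuclear activator, Psme4 or PA200, was not called, at -0.10 and an edgeR quasi-likelihood adjusted p of 0.0506. It was called lower under 8 of the alternatives tried. Of the assembly chaperones, Psmg1 of the core (-0.18) and Psmd10 of the base (-0.37) fell, and the other 5 were not called. The inhibitor Psmf1, or PI31, was not called either (-0.08).

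**Figure D1:**
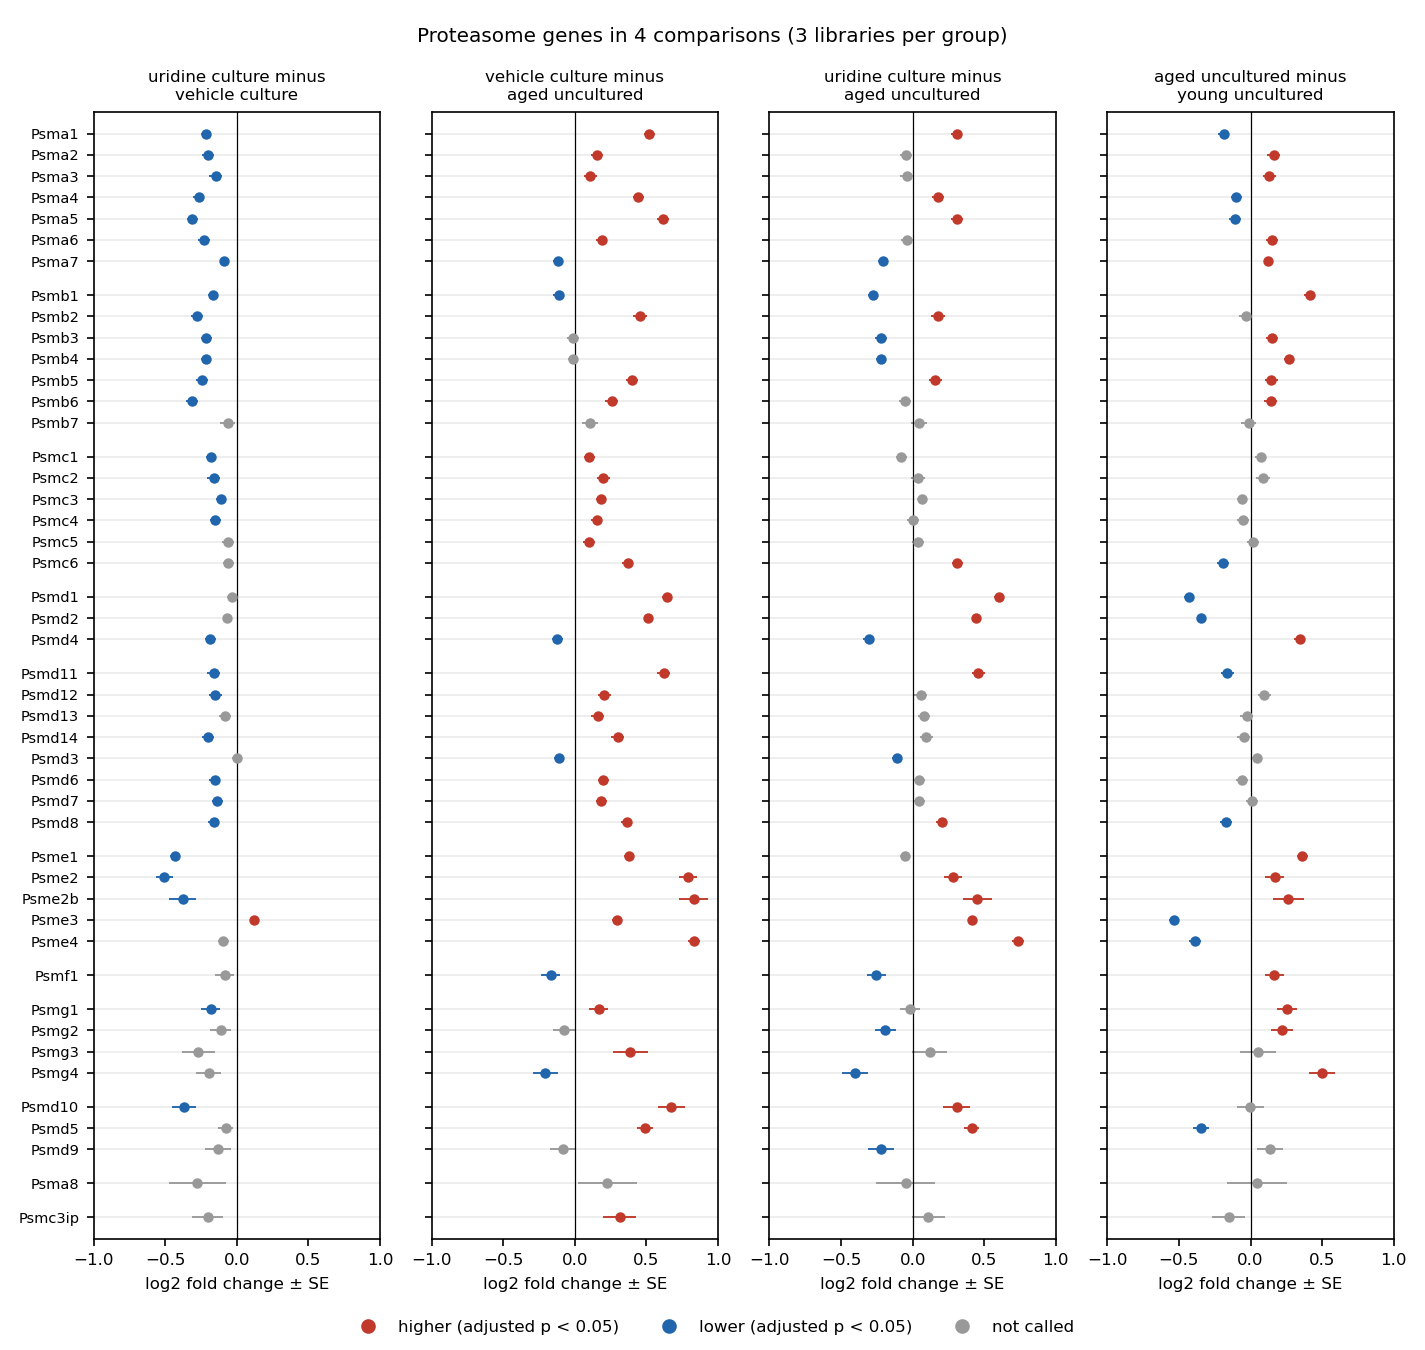
Log2 fold change ± SE (x axis) of the 46 proteasome genes tested (rows, grouped by role) in 4 comparisons, with 3 libraries per group. Red marks genes called higher, blue genes called lower and grey genes not called; 29 are blue in uridine against vehicle cultures and 34 are red in vehicle cultures against uncultured aged cells.

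Of the 30 calls in this comparison, 27 were made under every alternative tried. The others were Psma3, Psma7 and Psmg1, which lost their calls when certain single uridine or vehicle libraries were left out: 1 library for Psma3, and any of 4 for Psma7 and for Psmg1. Markers of other cells also differed between these groups. The 9 neutrophil markers summed to 2114 to 2184 CPM in uridine cultures and 364.4 to 368.4 CPM in vehicle cultures. The 7 macrophage markers summed to 754.7 to 781.7 CPM in uridine cultures and 1214 to 1259 CPM in vehicle cultures, and the 8 proliferation markers to 3214 to 3245 CPM and 2719 to 2779 CPM. The 4 markers of stroma and endothelium summed to 144.2 to 153.5 CPM in uridine cultures and 2.09 to 2.80 CPM in vehicle cultures, and the 7 erythroid markers to 121.7 to 125.0 CPM and 6.04 to 7.91 CPM, with Slc4a1 at 0 in vehicle cultures. The 9 HSPC markers summed to 1220 to 1270 CPM in uridine cultures and 1474 to 1488 CPM in vehicle cultures, and the 7 B cell markers to 215.1 to 232.1 CPM and 40.55 to 44.1 CPM. Much of the difference in the HSPC sum lay in Ly6a, at a mean of 258.4 CPM in uridine cultures and 454.7 CPM in vehicle cultures. Kit, Flt3 and Gata2 had higher means in uridine cultures, and the other HSPC markers lower ones. In uncultured young cells the neutrophil markers summed to 5539 to 5751 CPM, and those of stroma and endothelium to 510.8 to 540.2 CPM. There the erythroid markers summed to 353.2 to 356.6 CPM, the B cell markers to 599.2 to 606.6 CPM and the macrophage markers to 238.8 to 249.7 CPM. Proliferation markers were at 4021 to 4068 CPM and HSPC markers at 975.0 to 992.8 CPM. In each of these sums the uridine cultures lay between the vehicle cultures and the young cells. Single HSPC markers did not all follow. The mean of Kit was 273.9 CPM in uridine cultures, 261.9 CPM in vehicle cultures and 253.9 CPM in young cells, and that of Cd48 was 64.6, 71.75 and 72.49 CPM in the same order. The part of these cell types in the differences of the proteasome genes was not tested.

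**Figure D2:**
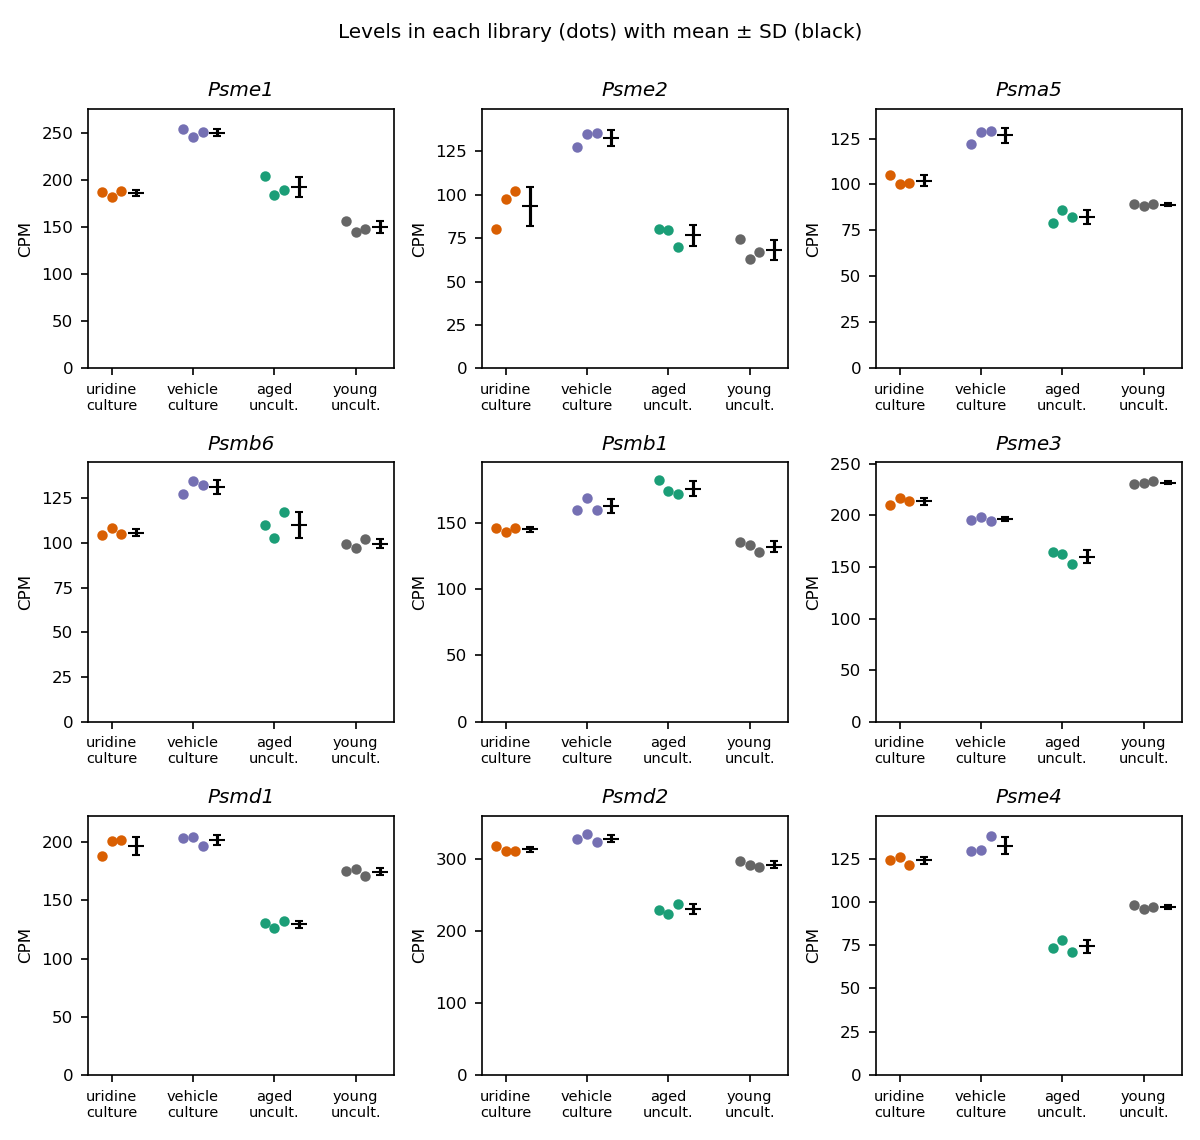
Level in CPM (y axis, from 0) of 9 proteasome genes in each library (dots) of the 4 groups, with the mean ± SD of 3 libraries in black. Psme1, Psme2, Psma5 and Psmb6 are highest in the vehicle cultures, while Psmd1, Psmd2, Psme3 and Psme4 are lowest in uncultured aged cells.

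Vehicle cultures were then set against uncultured aged cells, a comparison that holds the culture itself. Proteasome genes were mostly higher in culture: 34 of 46 rose, 6 fell and 6 were not called by edgeR's quasi-likelihood test, where 35.4% of all genes were called higher, 35.1% lower and 70.5% in either direction. All vehicle libraries lay above all uncultured aged libraries for 34 members and below them for 5, where 36.1% and 35.4% of all genes did so. The median log2 fold change was 0.20, beside -0.01 over all genes. The size of change was small for this comparison. The median absolute log2 fold change was 0.207 over the members and 0.547 over all genes, and no member passed a log2 fold change of 1, which 30.6% of all genes did. The calls spanned the particles: 6 of 7 alpha subunits, 3 of 7 beta subunits, all 6 base ATPases and 7 of 8 lid subunits rose. All 5 activator genes rose, and the inhibitor Psmf1 fell (-0.17).

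Psme4, the nuclear activator PA200, changed most. It was at 129.5, 130.0 and 138.0 CPM in vehicle cultures, against 73.6, 78.2 and 71.0 CPM in uncultured aged cells. Psmd1, the larger base scaffold, was at 204.0, 204.8 and 197.1 CPM in vehicle cultures, against 130.4, 125.9 and 132.0 CPM in uncultured aged cells. Psmd2, the base scaffold that docks ubiquitin-like shuttles, was at 327.4, 334.4 and 323.7 CPM in vehicle cultures, against 229.1, 223.8 and 238.2 CPM in uncultured aged cells. None of these 3 genes overlapped between the groups. The log2 fold changes were 0.83 for Psme4, 0.64 for Psmd1 and 0.51 for Psmd2, with edgeR quasi-likelihood adjusted p-values of 2.43e-19, 3.51e-18 and 9.27e-18. The alpha subunit Psma5 stood at the vehicle levels given above, against 78.8, 86.4 and 82.4 CPM in uncultured aged cells (0.62, edgeR quasi-likelihood adjusted p = 1.53e-15). Psme2 (0.79) and Psme1 (0.38) rose as well.

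The falls in culture were small, and the 4 with the smallest p-values were Psma7, Psmb1, Psmd4 and Psmd3. Psma7 was at 189.5, 196.2 and 193.6 CPM in vehicle cultures, against 214.9, 206.4 and 207.4 CPM in uncultured aged cells. The beta subunit Psmb1 was at 160.0, 168.8 and 159.8 CPM in vehicle cultures, against 182.2, 174.2 and 172.0 CPM in uncultured aged cells. Psmd4, which binds ubiquitin chains, was at 134.3, 128.8 and 126.3 CPM in vehicle cultures, against 140.3, 143.8 and 139.7 CPM in uncultured aged cells. For Psmd3 the values were 178.5, 185.6 and 179.1 CPM in vehicle cultures, against 200.7, 188.0 and 197.1 CPM in uncultured aged cells. The groups did not overlap for any of these 4 genes. Their log2 fold changes were -0.12, -0.11, -0.12 and -0.11 in that order, with edgeR quasi-likelihood adjusted p-values of 0.00122, 0.00545, 0.00663 and 0.00671. Without vehicle replicate 3 the calls of Psmb1 and Psmd4 were lost (edgeR quasi-likelihood adjusted p = 0.0501 and 0.0638), and 3 members were called lower in place of 6. Without the low-count filter 1 member was called lower.

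Of the 40 calls, 28 were made under every alternative tried. The 3 uncultured aged libraries stand apart from the others, with 21.6 to 21.9% of their counts in immunoglobulin genes and Jchain, against 0.922 to 0.925% in vehicle cultures. The 8 plasma cell markers summed to 1044 to 1092 CPM in vehicle cultures and 25630 to 25890 CPM in uncultured aged cells, and the 7 B cell markers to 40.6 to 44.1 CPM and 1779 to 1866 CPM. The members' share of all counts was 0.590 to 0.596% in vehicle cultures and 0.388 to 0.402% in uncultured aged cells. As a share of counts outside the immunoglobulin genes and Jchain it was 0.596 to 0.601% in vehicle cultures and 0.496 to 0.515% in uncultured aged cells. With those genes left out before scaling, 33 members were called higher and 6 lower. HSPC markers were present in every group, and their 9 genes summed to 1474 to 1488 CPM in vehicle cultures and 949.5 to 974.3 CPM in uncultured aged cells. The 7 macrophage markers summed to 1214 to 1259 CPM in vehicle cultures and 135.6 to 143.8 CPM in uncultured aged cells, and the 8 proliferation markers to 2719 to 2779 CPM and 1851 to 1876 CPM. The part of these cells in the differences of the members was not tested.

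Uridine cultures against uncultured aged cells share those aged libraries with the comparison above. Here 16 members rose, 10 fell and 20 were not called by edgeR's quasi-likelihood test, where 35.8% of all genes were called higher, 32.1% lower and 67.9% in either direction. The libraries were apart for 16 members that were higher with uridine and 7 that were lower, beside 36.7% and 32.6% of all genes. The median log2 fold change was 0.05, beside 0.03 over all genes. With upper quartile scaling it was -0.00924, beside -0.02504 over all genes, so both medians moved by about the same amount. Psme4 was at 124.4, 125.9 and 121.6 CPM in uridine cultures, Psmd1 at 188.2, 201.2 and 201.5 CPM, Psmd2 at 317.9, 311.8 and 310.9 CPM, and Psme3 at the uridine levels given above. Against the aged libraries, where Psme3 was at 164.7, 162.9 and 152.5 CPM, none of the 4 genes overlapped. The log2 fold changes were 0.74 for Psme4, 0.61 for Psmd1, 0.44 for Psmd2 and 0.42 for Psme3, with edgeR quasi-likelihood adjusted p-values of 1.02e-17, 2.03e-17, 5.97e-16 and 8.85e-14.

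The falls between uridine cultures and uncultured aged cells with the smallest p-values were those of Psmb1, Psmd4, Psma7 and Psmb4. In uridine cultures Psmb1 was at 146.2, 143.1 and 146.5 CPM and Psmd4 at 108.5, 120.1 and 114.0 CPM, below every aged library. Psma7 was at 181.0, 179.0 and 184.6 CPM in uridine cultures, again below every aged library. The beta subunit Psmb4 was at 175.0, 179.2 and 177.8 CPM in uridine cultures, against 213.8, 200 and 207.6 CPM in uncultured aged cells. The log2 fold changes were -0.28, -0.31, -0.21 and -0.22 in that order, with edgeR quasi-likelihood adjusted p-values of 1.70e-08, 1.74e-08, 4.64e-07 and 4.81e-07. The 14 core subunits gave 5 rises and 4 falls and the 17 regulatory particle subunits 5 and 2. Psme1 was not called (-0.05), although it was called lower with DESeq2 and with 2 other scalings, and Psme2 rose (0.28). The core chaperone Psmg4 had the largest fall (-0.40). Markers of other cells differed here too. Plasma cell markers summed to 704.0 to 729.6 CPM in uridine cultures and 25630 to 25890 CPM in uncultured aged cells. Neutrophil markers were at 2114 to 2184 CPM and 570.8 to 606.6 CPM, and macrophage markers at 754.7 to 781.7 CPM and 135.6 to 143.8 CPM. Their part in these differences was not tested.

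**Figure D3:**
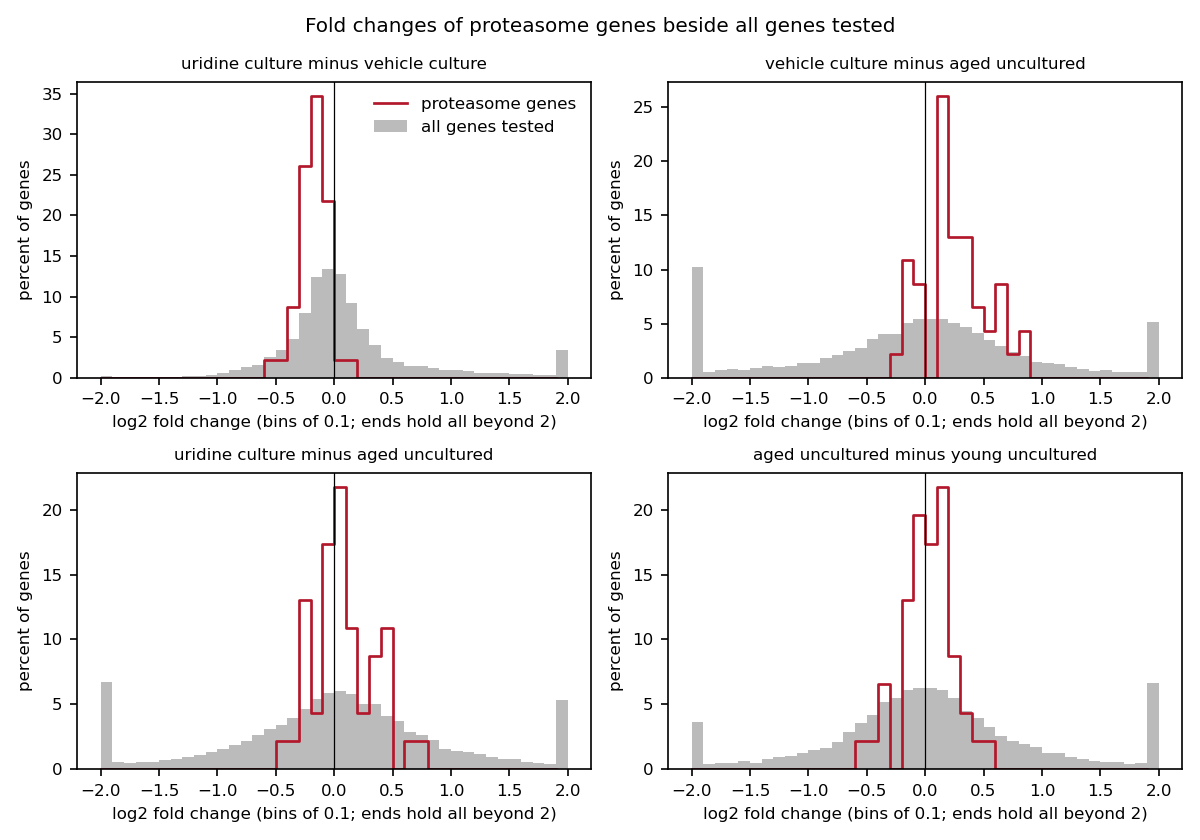
Percent of genes (y axis) by log2 fold change in bins of 0.1 (x axis), for all genes tested (grey bars) and the 46 proteasome genes (red line), in 4 comparisons; the end bins hold all values beyond 2. The proteasome genes lie within 1 of 0 in each comparison, 44 of 46 left of 0 in uridine against vehicle cultures and mostly right of 0 in vehicle cultures against uncultured aged cells.

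Uncultured aged cells against uncultured young cells gave changes in both directions: 17 members rose, 11 fell and 18 were not called by edgeR's quasi-likelihood test, where 33.2% of all genes were called higher, 32.1% lower and 65.3% in either direction. All aged libraries lay above all young libraries for 14 members and below them for 10, beside 33.8% and 33.1% of all genes. The median log2 fold change was 0.05, beside 0.02 over all genes. The particles differed in their counts. Of the 14 core subunits 9 rose and 3 fell (median 0.14), whereas of the 17 regulatory particle subunits 1 rose and 5 fell (median -0.05). The summed level of the core was 1731 ± 38.9 CPM in aged cells and 1605 ± 19.8 CPM in young cells. That of the regulatory particle was 2170 ± 33.7 CPM in aged cells and 2278 ± 3.50 CPM in young cells. The libraries did not overlap in either sum, and no test of the difference between particles was made.

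By p-value, Psmb1, Psme1, Psmd4 and Psmb4 came first among the rises with age. Psmb1 was at 182.2, 174.2 and 172.0 CPM in aged cells, against 135.8, 133.1 and 127.8 CPM in young cells. Psme1 was at 203.9, 184.0 and 189.5 CPM in aged cells, against 156.7, 144.4 and 147.8 CPM in young cells. The ubiquitin receptor Psmd4 stood at the aged levels given above, against 114.0, 108.9 and 111.2 CPM in young cells. Psmb4 did too, against 172.8, 170.4 and 171.5 CPM in young cells. Every aged library was above every young library for these 4 genes. Their log2 fold changes were 0.41, 0.36, 0.34 and 0.27 in that order, with edgeR quasi-likelihood adjusted p-values of 2.20e-12, 9.20e-11, 2.16e-09 and 1.37e-08. Of the 4 core chaperones 3 rose, and the largest rise among the members was that of Psmg4, at 28.4, 35.9 and 33.5 CPM in aged cells and 24.1, 21.6 and 23.4 CPM in young cells (0.50).

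By p-value, the nuclear activators Psme3 and Psme4 and the base scaffolds Psmd1 and Psmd2 came first among the falls with age. Psme3 stood at 164.7, 162.9 and 152.5 CPM in aged cells, against 231.0, 231.2 and 233.4 CPM in young cells. Psmd1 stood at the aged levels given above, against 175.5, 177.2 and 171.3 CPM in young cells. For Psmd2 the young libraries had 297.1, 291.2 and 288.9 CPM, and for Psme4 98.4, 95.8 and 97.2 CPM, above every aged library in both cases. The log2 fold changes were -0.535 for Psme3, -0.43 for Psmd1, -0.34 for Psmd2 and -0.39 for Psme4, with edgeR quasi-likelihood adjusted p-values of 9.86e-17, 4.43e-13, 9.85e-13 and 7.46e-10. The base chaperone Psmd5 also fell (-0.34). The alpha subunits Psma1 (-0.19), Psma4 (-0.10) and Psma5 (-0.11) fell, and the other 4 rose.

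Of the 28 calls with age, 18 were made under every alternative tried, and the 10 others had log2 fold changes under 0.27 in size. Among them Psma4 lost its call without aged replicate 2 (edgeR quasi-likelihood adjusted p = 0.24), and Psme2 (0.17) without any of 4 libraries. Between 13 and 18 members were called higher when 1 library was left out, the lowest number being without young replicate 2. The groups also differed in markers of other cells. Plasma cell markers summed to 25630 to 25890 CPM in aged cells and 633.7 to 643.0 CPM in young cells, and the 9 neutrophil markers to 570.8 to 606.6 CPM and 5539 to 5751 CPM. Proliferation markers summed to 1851 to 1876 CPM in aged cells and 4021 to 4068 CPM in young cells. All 8, 9 and 8 markers of these lists were above 0 in both groups. B cell markers summed to 1779 to 1866 CPM in aged cells and 599.2 to 606.6 CPM in young cells. Erythroid markers were at 136.1 to 140.0 CPM and 353.2 to 356.6 CPM, and those of stroma and endothelium at 6.59 to 8.68 CPM and 510.8 to 540.2 CPM. HSPC markers were closer, at 949.5 to 974.3 CPM in aged cells and 975.0 to 992.8 CPM in young cells. The part of these cells in the differences with age was not tested.

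In some comparisons the fold changes of the members moved with the length of their transcripts. Between uridine and vehicle cultures, shorter transcripts had the more negative values. Pearson's r between the log2 fold change and log2 length was 0.55 and Spearman's rho 0.63 over the 46 genes, which share their libraries and are not independent. Over 9342 protein-coding genes at 10 CPM or more, the same values were 0.12 and 0.31. Of the 24 members with a transcript under 1500 bases 18 fell, where 42.9% of the 1319 protein-coding genes of that length and level did. Of the 10 members of 2500 bases or more 3 fell and 1 rose, where 19.7% of such genes fell and 29.3% rose. Under 1500 bases the median log2 fold change was -0.21 over the members and -0.14 over the 1319 genes. From 1500 bases to under 2500 it was -0.16 over the members and -0.07 over 2088 genes of that level. At 2500 bases or more it was -0.09 over the members and 0.02 over 5935 genes. Whether length or a property that goes with it accounts for the difference between members was not tested.

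Between uncultured aged and young cells the relation ran the other way, with an r of -0.56 and a rho of -0.47 over the members and -0.21 and -0.34 over the 9342 genes. Over the 31 subunits of the core and regulatory particles r was -0.37 and rho -0.31 here. Between uridine and vehicle cultures they were 0.56 and 0.59 over those subunits. Of the 24 short members 13 rose and 3 fell, where 57.1% of such genes rose and 16.4% fell. Of the 10 long members 6 fell, where 51.8% of such genes did. These counts of short and long members are near those of other genes of the same length. Of the 12 members of 1500 bases or more and under 2500, 1 rose and 2 fell. Of the 2088 protein-coding genes of that length at 10 CPM or more, 889 rose and 606 fell. Between vehicle cultures and uncultured aged cells 17 of the 24 short members rose, where 27.0% of such genes were called higher. There r was 0.15 and rho 0.05 over the members, beside 0.11 and 0.22 over the 9342 genes. Between uridine cultures and uncultured aged cells r was 0.41 and rho 0.24 over the members, beside 0.20 and 0.36 over the 9342 genes.

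**Figure D4:**
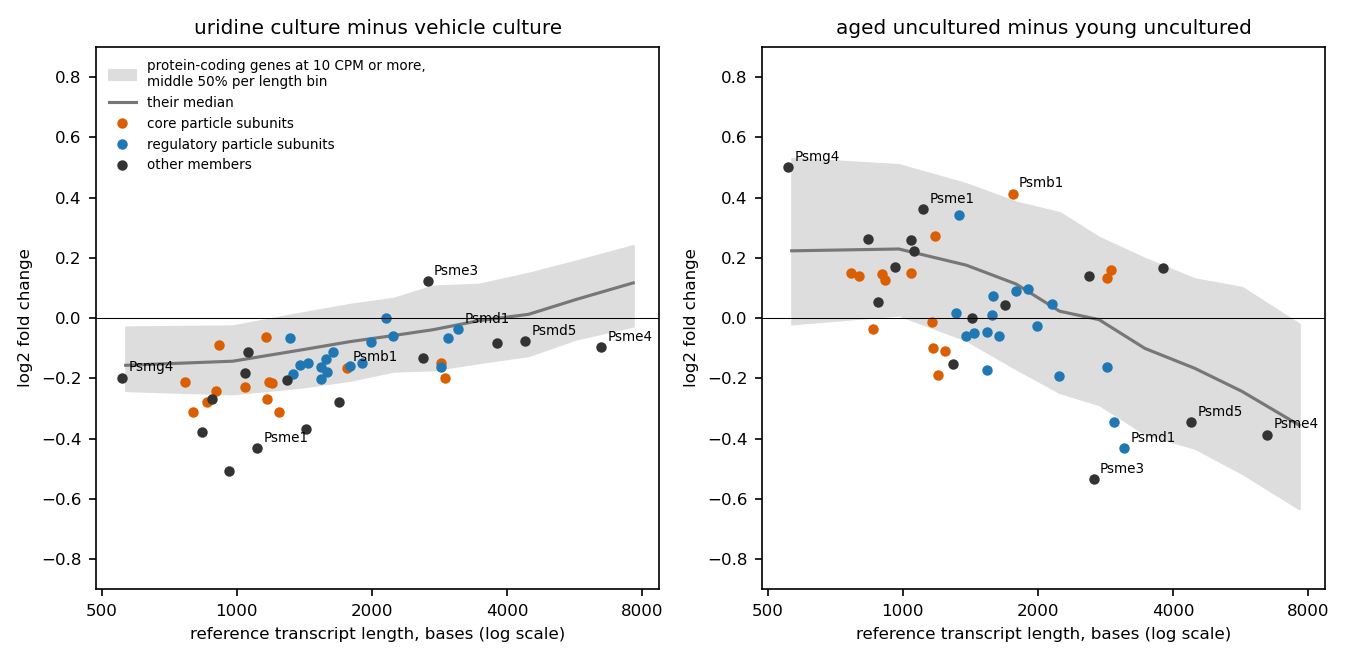
Log2 fold change (y axis) against the length of the reference transcript in bases (x axis, log scale) for proteasome genes (dots, coloured by particle) in uridine against vehicle cultures (left) and in uncultured aged against young cells (right). The grey line and band give the median and middle 50% of protein-coding genes at 10 CPM or more; r over the 46 members is 0.55 on the left and -0.56 on the right.

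The 3 immunoproteasome genes, which replace the constitutive beta subunits under interferon, lie outside the 47. Psmb8, Psmb9 and Psmb10 fell between uridine and vehicle cultures (-0.29, -0.30 and -0.50), rose between vehicle cultures and uncultured aged cells (0.26, 0.31 and 0.42), and rose between uncultured aged and young cells (0.46, 0.60 and 0.65). Per length, the level of Psmb10 over that of Psmb7, the subunit it replaces, was 1.36 ± 0.0363 in uridine cultures, 1.84 ± 0.0490 in vehicle cultures, 1.48 ± 0.102 in uncultured aged cells and 0.929 ± 0.0410 in uncultured young cells (SD, n = 3 each). The libraries of the 4 groups did not overlap in this ratio, except that the highest uridine library, at 1.39, lay above the lowest uncultured aged library, at 1.37. Psmb7 overlaps exons of Nek6 on the opposite strand, and the sources used here do not say whether strand was used in the counting. For Psmb9 over Psmb6 the means were 0.784 ± 0.0116 in uridine cultures, 0.776 ± 0.0487 in vehicle cultures, 0.747 ± 0.0305 in uncultured aged cells and 0.5435 ± 0.0112 in uncultured young cells, and the uridine libraries lay within the range of the vehicle libraries. For Psmb8 over Psmb5 the means were 1.33 ± 0.0447, 1.37 ± 0.00998, 1.51 ± 0.0522 and 1.22 ± 0.0305 in the same order of groups.

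Proteins that work with the proteasome were listed apart from the rule, and 9 were measured. Between uridine and vehicle cultures 4 fell and 1 rose, where 18.1% and 20.0% of all genes did so. Pomp, the maturation factor of the core, was at 96.5 ± 2.98 CPM in uridine cultures and 110.5 ± 7.20 CPM in vehicle cultures (-0.19), and Sem1, a small lid subunit, at 86.1 ± 3.60 CPM and 97.1 ± 2.15 CPM (-0.17). Uchl5, a deubiquitinase of the base, and Txnl1, a redox protein that binds the regulatory particle, fell as well (-0.14 and -0.16). Ecpas, an adaptor that tethers the proteasome, rose (0.10), and it is named here because it was the single gene to do so. Adrm1, the ubiquitin receptor of the base, was not called, at 114.7 ± 3.37 CPM in uridine cultures and 117.9 ± 3.27 CPM in vehicle cultures. Between vehicle cultures and uncultured aged cells, where 35.4% of all genes rose and 35.1% fell, 6 of the 9 rose, among them the deubiquitinase Usp14 (0.59), Ecpas (0.49) and Pomp (0.42), while Adrm1 (-0.13) and Sem1 (-0.11) fell. Between uncultured aged and young cells, where 32.1% of all genes fell and 33.2% rose, 6 fell, with Ecpas (-0.45) and the ubiquitin ligase Ube3c (-0.31) first, and Sem1 (0.32) and Adrm1 (0.11) rose.

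Upstream of the proteasome, 16 genes of ubiquitin, its activation and its shuttles were listed. Between uridine and vehicle cultures 5 fell and 2 rose, beside 18.1% and 20.0% of all genes. Vcp, the segregase that extracts ubiquitinated proteins, was among the falls (-0.13). Both genes that rose, Zfand5 (0.14) and Zfand2a (0.23), encode zinc finger proteins that bind proteasomes, and Zfand2a was chosen after its value was seen. Between vehicle cultures and uncultured aged cells 9 rose and 3 fell, beside 35.4% and 35.1% of all genes. The activating enzymes Uba6 (1.55) and Uba1 (0.45) were among the rises. Between uncultured aged and young cells 5 rose and 10 fell, beside 33.2% and 32.1% of all genes, and Uba1 (-0.43), Zfand5 (-0.50) and Zfand2a (-0.82) were among the falls.

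The transcription factor NFE2L1, also called NRF1, raises proteasome genes when the proteasome is short of capacity, and NFE2L2, or NRF2, does so under oxidative stress. Nfe2l1 was at 152.1 ± 4.93 CPM in uridine cultures, 165.5 ± 2.63 CPM in vehicle cultures, 128.7 ± 2.07 CPM in uncultured aged cells and 113.3 ± 1.55 CPM in uncultured young cells. It fell between uridine and vehicle cultures (-0.12, edgeR quasi-likelihood adjusted p = 0.00493), and rose between vehicle cultures and uncultured aged cells (0.36) and between uncultured aged and young cells (0.18). Nfe2l2 was at 145.9 ± 6.97 CPM in uridine cultures, 202.6 ± 3.55 CPM in vehicle cultures, 57.4 ± 5.81 CPM in uncultured aged cells and 76.3 ± 1.98 CPM in uncultured young cells. Its log2 fold changes were -0.47 between uridine and vehicle cultures, 1.82 between vehicle cultures and uncultured aged cells, and -0.41 between uncultured aged and young cells. Of the 10 genes listed for this route, 4 rose and 4 fell between uridine and vehicle cultures, beside 20.0% and 18.1% of all genes. Keap1, which holds NFE2L2 for degradation, was among the falls (-0.29), and the small MAF partners Maff (1.36) and Mafk (0.46) were among the rises. Between vehicle cultures and uncultured aged cells 4 rose and 5 fell, beside 35.4% and 35.1% of all genes, with Maff (-3.11) and the ubiquitin ligase Syvn1 (-1.38) among the falls. Between uncultured aged and young cells 5 rose and 3 fell, beside 33.2% and 32.1% of all genes, and Sel1l (1.12) and Syvn1 (0.63), which act together in degradation from the endoplasmic reticulum, rose.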

How the data were processed

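Poly-A RNA was sequenced as 150 bp pairs, per the labels' protocols. The submitters' processing notes name HISAT2 2.0.5 and mm10. The authors deposited whole-number counts for each gene, not normalized. Counting software, annotation and strand setting were not given in the sources used here. Overlapping and antisense genes are therefore uncertain. Groups came from sample titles. Symbols, biotypes and transcripts came from GENCODE M21, which matched 54409 IDs. The other 123 held at most 0.0649% of a library.

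Genes were kept by filterByExpr (16675 genes). Counts were scaled by TMM and fitted with 1 mean per group over all 12 libraries with edgeR 4.0.16 in R 4.3.3 (common biological coefficient of variation 0.0438). The 4 contrasts were tested by the quasi-likelihood F-test, with Benjamini-Hochberg adjustment over all genes and a threshold of 0.05. Lists were described by counts and medians, with no test. The reference transcript was the one of best APPRIS grade, then the longest, and the length of all annotated exons was tried for levels after the data were seen. No pair of replicates looked like 1 library deposited again (chi-square per degree of freedom 2.27 to 3.94). Values per library are given, per comparison, for the 4 called members of smallest p in each direction, and other genes come from lists of partners, ubiquitin genes and the NFE2L1 route. Alternatives were DESeq2 1.42.0 and its size factors, limma 3.58.1 voom, the upper quartile, no filter, no immunoglobulin genes or Jchain, a fit to just the 6 libraries of a comparison, a block for replicate number, and leaving out each library. The scripts were tested on simulated data. Members, lists and tests were chosen with earlier results of these data known.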

Additional observations from a re-analysis of the deposited data

How the results depend on the processing

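No member's call changed sign under any alternative tried. Between vehicle cultures and uncultured aged cells the median log2 fold change of the 46 genes, 0.20, was 0.1394 with upper quartile scaling and 0.2303 without the low-count filter. Without the filter 1 member was called lower, in place of 6. Without 1 library the median ran from 0.2046 to 0.2387 and the number called lower from 3 to 6. Between uridine cultures and uncultured aged cells the median, 0.05, was 0.01314 with DESeq2 size factors, 0.01315 with the DESeq2 test, 0.01439 with the 6 compared libraries only, 0.06825 without the filter and -0.00924 with upper quartile scaling. There the sign reversed, while the median of all genes moved by -0.0554 to -0.02504. Without 1 library it ran from 0.04446 to 0.06943. The cause of the other shifts was not tested. No scaling moved the median of all genes by more than 0.0641. Between uridine and vehicle cultures 27 to 31 members were called lower without 1 library, and 29 to 33 under the other alternatives.

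With the replicate number as a block, 1 and 29 members were called higher and lower between uridine and vehicle cultures, 34 and 6 between vehicle cultures and uncultured aged cells, 16 and 10 between uridine cultures and uncultured aged cells, and 17 and 11 between uncultured aged and young cells, the same numbers as without the block. Deviations of same-numbered libraries correlated at -0.0344 to 0.0115, so no deviation shared by number was seen. With 3 libraries per group and counting noise in most genes, this cannot exclude a pairing. Depth limits few members: Psmb11 could not be tested, and Psma8, Psmg3 and Psmc3ip had the largest standard errors between uridine and vehicle cultures.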
